A study of Mus musculus with 40 samples.

Results

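The lung of the 4-week-old mouse was compared with the kidney and the heart of the same age, on 15 of the series' 40 arrays, 5 per organ. A gene belonged to the lung's profile when it differed in the same direction from kidney and from heart, each at an adjusted p under 0.05 in limma. Of 14462 genes tested, 3483 were higher in lung than in both other organs (24.1%) and 1944 were lower (13.4%), 5427 in all. Every animal was a male C57BL/6 mouse with no allele or agent given in the labels, and the labels name the organ without saying which part of it was taken. The 4-week organs are labelled as slowly proliferating, those of 1 week as rapidly and those of 8 weeks as very slowly proliferating. The series holds 8 groups of 5: kidney and lung at 1, 4 and 8 weeks and heart at 1 and 4 weeks. The labels do not say whether arrays are separate animals, so the errors and p-values measure the spread between these samples, which may be technical. The question is which transcripts set the growing lung apart from both of the other organs, and which of those differences are also found at the other ages.

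The gas exchange surface of the lung is lined by flat alveolar type 1 cells, across which gases diffuse, and by cuboidal type 2 cells, which make surfactant, the mixture of lipid and protein that keeps alveoli from collapsing. The conducting airways carry secretory club cells and ciliated cells that clear mucus, and a dense capillary bed, elastic fibres and resident macrophages fill the walls and air spaces. Kidney tubules and heart muscle, in contrast, are rich in mitochondria and burn fatty acids to drive ion transport and contraction. An organ sample mixes many cell types, so a lower signal can mean fewer cells of a type or less RNA per cell, which cannot be told apart.

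Signals are in array units, scaled so that the trimmed mean of every array is 500, and differences are of log2(signal + 16), lung minus the other organ, ± SE with 5 arrays per organ. A pair of values given for the other organs, or of differences in brackets, names kidney first and heart second, and ± beside a signal is the SD. A signal under 117.9, the level a gene's highest group had to reach to be tested, is called dim here, and where the other organs are dim the size of a fold depends on the offset of 16. The median array signal was 186.2 to 204.8 in lung, 133.0 to 184.4 in kidney and 145.4 to 176.2 in heart, and 60.97 to 63.97% of lung values reached 117.9 against 52.56 to 61.37% in kidney. The 3′ minus 5′ signal of the actin control, a sign of RNA integrity, was 0.36 to 0.54 (log2) in lung, 0.44 to 0.67 in heart and 0.61 to 1.43 in kidney. Sample descriptions write the letter for week in upper case for all 5 kidney samples and 1 heart sample and in lower case for all 5 lung samples, without saying what the case marks, so that case and organ cannot be told apart between lung and kidney. On every one of the 15 arrays the profile correlated best with its own organ's group. Heart replicate 3 carried lung transcripts, with Scgb1a1 at 1657 against 8.8 to 24.4 on the other 4 heart arrays, and heart replicate 2 was low in atrial muscle genes, with Myl7 at 2443 against 19216 to 24754. Without these 2 arrays 3333 genes were higher and 1825 lower, and 93.1% of the 5427 genes were called in the same direction. This setting was chosen after the data had been seen.

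The lung differed from each single organ in most genes: 5227 were higher (36.1%) and 4043 lower (28.0%) than in kidney, and 5785 higher (40%) and 3569 lower (24.7%) than in heart. At least 2-fold in both comparisons, 1382 genes were higher in lung (9.56%) and 665 were lower (4.6%). The lung arrays lay above all 10 others for 2886 genes (20%) and below all of them for 1424 (9.85%). A further 1476 genes were called against both organs but in opposite directions. The split between higher and lower depends on the scaling: 64.2% of the 5427 calls were higher, but after scaling each array to a common median 2240 genes were higher and 2854 lower (44.0% higher), and after quantile normalization 3171 and 2553 (55.4%). The median difference over all genes tested was 0.081 from kidney and 0.183 from heart, and -0.139 and -0.076 after median scaling, so small differences are to be read against these shifts. At the edge of the call, Mmd2 passed as higher with a smaller difference of 0.69 and an adjusted p of 0.0499, and Tbc1d15 missed it with 0.34 and 0.0501. At the 2-fold line Ttyh3 was just inside with a smaller difference of 1.0005 and C230072F16Rik just outside with 0.9962.

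**Figure D1:**
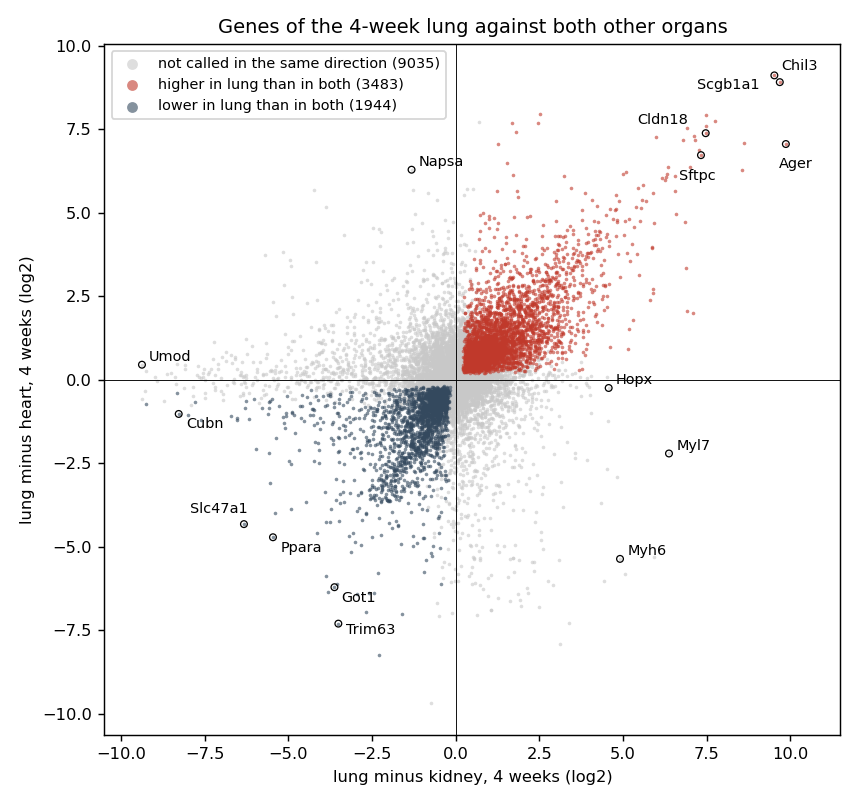
Each point is 1 of 14462 genes, with the lung minus kidney difference on the horizontal axis and the lung minus heart difference on the vertical axis, both log2 at 4 weeks. Red points (3483) were called higher in lung than in both organs, dark points (1944) lower than in both and grey points neither. Chil3 and Scgb1a1 lie farthest to the upper right, Ppara and Slc47a1 to the lower left, and heart muscle genes such as Myl7 and Myh6 are higher in lung than in kidney but lower than in heart.

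Ordered by the smaller of both differences, the 20 highest were Chil3, Scgb1a1, Sftpa1, Cyp2f2, Scgb3a2, Cldn18, Fendrr, Sftpd, Hp, Ager, Bpifa1, Cxcl15, Hc, Sftpc, Cyp2b10, Chil1, Mfap4, Sftpb, Slc6a14 and Sec14l3, with smaller differences from 9.11 down to 6.05. In all 20 the 5 lung arrays lay above the 10 others.

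Of 27 tested genes of surfactant and type 2 cells, 22 were higher in lung than in both organs and none was lower, with median differences of 4.11 from kidney and 4.93 from heart. The hydrophobic surfactant proteins, which spread the lipid film, come from Sftpb and Sftpc. Sftpc read 20101, 27667, 30221, 35377 and 29840.0 in lung, 263, 111, 125, 194 and 140.4 in kidney and 116, 211, 1013, 175 and 216 in heart. All lung arrays were above all others for Sftpc, lung replicate 1 was the lowest of the 5, and heart replicate 3 the highest outside lung. Its differences were 7.33 ± 0.42 over kidney and 6.72 ± 0.42 over heart, adjusted p at most 1.2e-09. Sftpb read 19255, 21946, 22655, 29544 and 24646 in lung, 285, 367, 116, 288 and 459.9 in kidney and 183, 305, 403, 340.3 and 383 in heart, differences 6.31 ± 0.29 over kidney and 6.16 ± 0.29 over heart. The collectins of surfactant, which bind microbes, are Sftpa1 and Sftpd. Sftpa1 read 22371, 28868, 29814, 35256 and 31636 in lung, 159, 149.5, 66.4, 105 and 141 in kidney and 61.7, 130, 179.9, 129 and 139 in heart, with differences of 7.76 ± 0.24 over kidney and 7.73 ± 0.24 over heart. Sftpd read 16025, 23079, 21128, 25261 and 22283 in lung, 138, 197, 68.6, 175 and 136 in kidney and 92.6, 158, 135, 139.6 and 84.2 in heart, 141-fold over kidney and 158-fold over heart on the scale of signal + 16. None of these 4 genes overlapped between lung and the other organs. Slc34a2, the phosphate carrier of type 2 cells, was 17672 ± 2497 (SD) in lung against 391 ± 56.4 and 317 ± 77.2. Cxcl15, a chemokine of the lung epithelium, was 20308 ± 2499.6 against 119 ± 39.8 and 163 ± 58.3.

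Some genes used to mark type 2 cells did not set the lung apart from both organs, and their kidney signals were as high or higher. Abca3, the lipid pump of the surfactant-storing lamellar body, read 3952, 3754, 4196, 4393 and 4300.0 in lung, 4809, 4346, 4682, 4768 and 5366 in kidney and 349.8, 178, 117, 174 and 263 in heart: lung and kidney overlapped (difference -0.22 ± 0.20, adjusted p = 0.357), while heart lay below both. Napsa, the protease that trims surfactant protein precursors, read 7494, 9893, 8171, 11119 and 10428 in lung, 20168, 19757, 29733, 21942 and 26223 in kidney and 89.8, 121, 92.9, 154 and 76.3 in heart, so that kidney exceeded lung (-1.32 ± 0.17) and both exceeded heart.

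Type 1 cells gave a like count, with 23 of 28 genes higher, none lower, and median differences of 3.21 and 4.10. Ager, the receptor for advanced glycation end products that is abundant on type 1 cell membranes, read 18442, 22386, 23176, 27593 and 25642 in lung, 9.4, 12.8, 5.5, 8.5 and 8.7 in kidney and 130.3, 305, 409, 169 and 28.6 in heart. Lung was far above both, the kidney arrays were all dim, and the heart arrays ranged from dim to 409. The differences were 9.87 ± 0.43 over kidney and 7.05 ± 0.43 over heart. Cldn18, a tight junction protein, read 5221, 7102, 7025, 7926 and 7584 in lung, 68.9, 27.7, 5.5, 23.8 and 12.2 in kidney and 5.2, 23.8, 49.3, 22.9 and 42.2 in heart, all 10 other arrays being dim (7.47 and 7.38). Aqp5, the water channel of type 1 cells, read 3807, 4358, 4251, 5574 and 5057 in lung against 44.3 to 70.9 in kidney and 11.4 to 16.3 in heart (5.99 ± 0.13 over kidney and 7.27 ± 0.13 over heart). Sec14l3 (6.27 and 6.05), Sema3e (5.09 and 6.23) and Rtkn2 (4.71 and 4.82) were among the other members past the test, as was Pdpn, a surface glycoprotein, at 2.62 and 2.99. With the deposited scaling heart shared 2 well known markers. Hopx, a cofactor without DNA binding of its own, read 15542, 19393, 20724, 21263 and 21525 in lung and 24281, 24717, 21259.9, 21222 and 25053 in heart, which overlap, against 649 to 1012 in kidney. Cav1, the coat protein of caveolae, read 16196, 19256, 21160.0, 23188 and 20465 in lung and 16070.4, 16169.9, 17279, 15690.4 and 16529 in heart. Its call over heart (difference 0.29 ± 0.12, adjusted p = 0.0406) was lost in 13 of the alternative settings, among them median scaling and the omission of any of lung replicates 2 to 5. Quantile normalization went the other way. After it Hopx was called higher than in both organs with a smaller difference of 0.50, and Cav1 stayed called with 0.97.

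**Figure D2:**
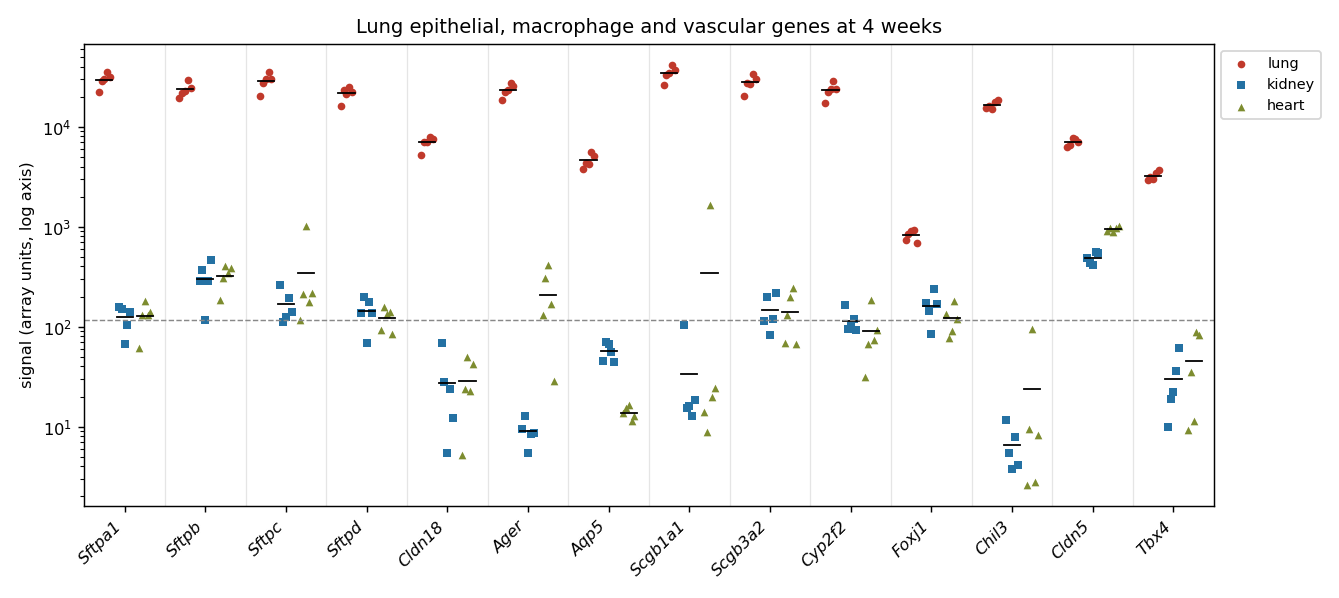
Signals of 14 lung genes on each of the 15 arrays of 4 weeks, on a log axis, with lung as red circles, kidney as blue squares, heart as green triangles, a bar at each mean and a dashed line at 117.9. The lung arrays lie above all others for every gene shown. Heart replicate 3 stands apart for Sftpc, Scgb1a1 and Chil3.

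Airway secretory genes were higher for 19 of 24 tested members, all 19 by at least 2-fold, and none was lower (median differences 4.31 and 4.75). Scgb1a1, the club cell secretoglobin, read 25856, 32698, 34807, 41466 and 37254 in lung, 104, 15.3, 15.9, 12.9 and 18.6 in kidney and 13.9, 8.8, 1657, 19.9 and 24.4 in heart. Kidney replicate 1 and heart replicate 3 exceeded their own groups but stayed far under the lung arrays, and the differences were 9.69 ± 0.90 over kidney and 8.91 ± 0.90 over heart. Without heart replicates 2 and 3 the smaller of both differences was 9.69 for Scgb1a1, 7.29 for Sftpc and 7.77 for Ager. Scgb3a2, a second secretoglobin, read 20486, 27285, 26716, 33946 and 30204 in lung against 82.8 to 219 in kidney and 66.7 to 246 in heart. Cyp2f2, the club cell cytochrome P450 that activates naphthalene, read 17133, 22389, 23736, 28748 and 24051 in lung, 164, 95.8, 101, 118 and 93.3 in kidney and 31.4, 67.7, 183, 72.8 and 93.4 in heart, differences 7.48 ± 0.28 over kidney and 7.92 ± 0.28 over heart. Bpifa1, an antimicrobial protein of the upper airway, ranged most among the highest genes, with 8153, 7408, 5232, 11663 and 6916 in lung against 30.4 to 72.2 and 6.8 to 67.6. Hp, which encodes the haemoglobin-binding haptoglobin, was at 9775, 12925, 12735, 16015 and 14251 in lung against 8.5 to 36.9 in kidney and 31 to 109 in heart. Lung replicate 1 was the lowest lung array for Scgb1a1, Scgb3a2, Cyp2f2 and Hp, as it was for all 4 surfactant protein genes.

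NKX2-1 is the transcription factor of lung epithelium known to act on surfactant and secretoglobin promoters, so the 250 bases before the start sites of the highest genes were searched for its core letters, CTCAAG or CAAGTG, on both strands.
The motif was chosen after the data had been seen.
The RefSeq promoter table (GRCm38.p6) covers 14 of the 20 highest genes, and 6 of the 14 hold a match (42.9%): Sftpa1, Cyp2f2, Cldn18, Bpifa1, Sftpb and Slc6a14.
Of 11588 genes tested with a promoter, 23.6% hold one, and 22.6% of all 32851 promoters searched do.
Among the airway secretory genes called higher the match was in 7 of 13 promoters (53.8%), and among those of type 2 cells in 5 of 17 (29.4%). Over all genes at least 2-fold higher it was in 286 of 1063 (26.9%), near the 23.6%, and in the ciliated genes called higher in 7 of 30 (23.3%).
FOXA factors are known to act beside it, and their letters TGTTTAC or TGTTTGC were found in 5 of the 14 (35.7%) against 7% of genes tested. They were in 97 of the 1063 genes at least 2-fold higher (9.13%). The TATA box letters TATAAA were also in 4 of the 14 (28.6%) against 9.23% of genes tested.
A match is a description of these letters and not a binding site.
Shown are 3 of the 6 promoters with NKX2-1 letters among the 20 highest genes, those of Sftpa1, Sftpb and Cyp2f2. They are printed 5′ to 3′ in gene orientation and end 1 base before the start site, with each match in capitals (CACTTG and CTTGAG are the same letters on the other strand). They lie at chr14:41131538-41131787 (forward strand), chr6:72304360-72304609 (forward strand) and chr7:27119705-27119954 (forward strand).
Sftpa1: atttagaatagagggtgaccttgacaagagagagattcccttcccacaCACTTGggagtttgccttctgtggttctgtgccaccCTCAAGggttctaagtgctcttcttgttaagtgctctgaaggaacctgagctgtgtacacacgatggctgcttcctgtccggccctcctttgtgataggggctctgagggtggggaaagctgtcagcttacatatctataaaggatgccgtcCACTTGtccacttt
Sftpb: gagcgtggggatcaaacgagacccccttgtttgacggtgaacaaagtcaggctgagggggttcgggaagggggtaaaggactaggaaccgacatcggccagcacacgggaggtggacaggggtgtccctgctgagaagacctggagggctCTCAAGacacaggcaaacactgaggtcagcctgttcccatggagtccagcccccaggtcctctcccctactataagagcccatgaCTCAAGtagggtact
Cyp2f2: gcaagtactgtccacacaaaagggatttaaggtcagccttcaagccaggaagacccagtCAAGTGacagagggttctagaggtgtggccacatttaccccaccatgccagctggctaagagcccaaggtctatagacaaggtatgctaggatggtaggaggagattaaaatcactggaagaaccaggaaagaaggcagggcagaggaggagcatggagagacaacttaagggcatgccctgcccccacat

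Nkx2-1 itself read 107, 212, 188, 157 and 134 in lung, 67.4, 101, 34.8, 11.6 and 138 in kidney and 57.2, 60.3, 47.9, 13.9 and 68.8 in heart. It was called higher with differences of 1.23 ± 0.40 over kidney and 1.47 ± 0.40 over heart (adjusted p at most 0.0143), but its arrays overlapped with kidney.

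Ciliated cells gave the largest share of calls among the epithelial lists, with 37 of 43 tested genes higher, none lower, 35 of them by at least 2-fold, at median differences of 2.64 from kidney and 2.65 from heart. Foxj1, the transcription factor that switches on motile cilia, read 736, 844, 904, 930.3 and 682 in lung, 171, 144, 83.8, 238 and 169 in kidney and 135, 77.2, 91.3, 182 and 119.5 in heart. All lung arrays were above the others, at differences of 2.29 ± 0.23 over kidney and 2.65 ± 0.23 over heart, although kidney signals were up to 238. Other members stood farther above both organs than Foxj1. Ccdc153 read 1495, 1609, 1794, 1876 and 1614 in lung and 27.2 to 69.8 and 5 to 56.9 in the others (4.80 and 5.52). Tmem212 read 1974, 1856, 1865, 1917 and 1792 (4.82 and 4.72), and Rsph1, a protein of the radial spokes, 555, 546, 600.3, 572 and 519.7 (4.51 and 4.36). 1110017D15Rik read 753, 774, 905, 986 and 715 against 10.9 to 19.5 and 9.7 to 19.5 (4.81 ± 0.12 over kidney and 4.78 ± 0.12 over heart). Myb, a factor needed for multiciliated cells and also expressed by blood progenitors, was 520.3 ± 46.7 against 12.6 ± 13.2 and 10.4 ± 9.37.

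RFX factors drive cilia genes through the X-box, and its half-site GTTGCC was searched on both strands in the 250 bases before the start site.
Of 30 ciliated cell genes called higher with a promoter among those searched, 14 hold the half-site (46.7%). So do 17 of all 38 members with such a promoter (44.7%), against 12.5% of the genes tested and 10.4% of all promoters searched. The motif was chosen with the data known.
None of 14 promoters of the 20 highest genes and none of 13 of airway secretory genes hold these letters.
Shown are the 4 ciliated cell genes with a match that stood farthest above both organs, printed as before, with the half-site in capitals (GGCAAC on the other strand). They lie at chr9:44240427-44240676 (forward strand), chr4:41507765-41508014 (reverse strand), chr11:114727169-114727418 (forward strand) and chr8:116504765-116505014 (forward strand).
Ccdc153: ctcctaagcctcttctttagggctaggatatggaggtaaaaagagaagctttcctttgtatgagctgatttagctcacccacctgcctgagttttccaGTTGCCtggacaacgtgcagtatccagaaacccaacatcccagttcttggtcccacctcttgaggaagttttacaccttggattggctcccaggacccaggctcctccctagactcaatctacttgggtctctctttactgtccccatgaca
1110017D15Rik: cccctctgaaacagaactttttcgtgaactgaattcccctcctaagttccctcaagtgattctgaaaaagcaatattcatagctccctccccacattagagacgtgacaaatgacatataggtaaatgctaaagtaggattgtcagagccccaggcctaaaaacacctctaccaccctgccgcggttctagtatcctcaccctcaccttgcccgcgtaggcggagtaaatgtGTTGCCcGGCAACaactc
Dnaic2: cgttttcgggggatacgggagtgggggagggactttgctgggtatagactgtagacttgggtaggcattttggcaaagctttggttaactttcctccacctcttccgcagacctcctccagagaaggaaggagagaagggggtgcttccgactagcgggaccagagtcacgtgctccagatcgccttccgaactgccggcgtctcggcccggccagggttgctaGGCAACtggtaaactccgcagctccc
Dynlrb2: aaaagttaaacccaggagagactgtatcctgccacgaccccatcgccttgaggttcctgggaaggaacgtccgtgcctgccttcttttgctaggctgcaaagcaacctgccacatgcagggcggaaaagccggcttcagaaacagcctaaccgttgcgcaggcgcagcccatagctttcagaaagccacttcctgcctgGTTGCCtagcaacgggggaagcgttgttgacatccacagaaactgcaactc
The half-site of Ccdc153 starts 152 bases before the start site, the 2 of 1110017D15Rik start 18 and 11 bases before it, that of Dnaic2 26 and that of Dynlrb2 51 bases before it.

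Basal, mucous and neuroendocrine airway cells left no such mark: of 21 genes on the array 11 were tested, none was higher and 1 was lower. That gene was Ddc, the decarboxylase of amine synthesis, at 320.4 ± 57.3 in lung, 3000.2 ± 241 in kidney and 478 ± 28.4 in heart.

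Of 47 tested transcription factors of lung development, 28 were higher and none lower than in both organs. Tbx4, the T-box factor of lung mesenchyme, stood highest with 2922, 3138, 3016, 3459 and 3679.9 in lung against 9.9 to 61.6 in kidney and 9.2 to 88.9 in heart (6.25 ± 0.39 over kidney and 5.97 ± 0.39 over heart). Its relative Tbx5, which also patterns the heart, was 1111 ± 175 in lung and 807 ± 274 in heart (difference 0.52 ± 0.46, adjusted p = 0.34). Foxf1, a forkhead factor of lung mesenchyme and endothelium, read 5172, 5322, 5088, 4718 and 4211 in lung, and Fendrr, the long non-coding RNA transcribed from the same locus, 2806, 3987, 4912, 4325 and 4096. Both lay above all other arrays, at 5.02 and 4.34 for Foxf1 and 7.17 and 7.17 for Fendrr. The endodermal factors Foxa1 (3.44 and 5.73), Foxa2 (2.76 and 2.96) and Sox2, which marks the conducting airway (4.80 and 4.29), were also higher than in both.

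Blood vessels formed another large part of the profile: 45 of 52 endothelial genes were higher in lung than in both organs and 1 was lower, with median differences of 2.65 from kidney and 1.54 from heart. Calcrl, the receptor subunit for calcitonin gene-related peptide and adrenomedullin, read 13132, 14374, 12979, 12198 and 12824 in lung, 512, 385, 306, 365 and 271 in kidney and 741, 877, 1175, 949.6 and 951 in heart. No array of the other organs reached the lung's range, and the differences were 5.13 ± 0.15 over kidney and 3.79 ± 0.15 over heart. Hpgd, the enzyme that inactivates prostaglandins during their passage through the lung, read 11545, 13144, 15079.7, 14886 and 15746 in lung against 595 to 836 and 515 to 849.9 (4.27 and 4.44). Scn7a, a sodium channel family member also found in glia, was 8312 ± 844 against 181 ± 36.5 and 602 ± 90.3. Pan-endothelial genes differed less from heart than from kidney, with 3.81 and 2.85 for the junction protein Cldn5 and 3.02 and 1.51 for the adhesion molecule Pecam1. Of genes that mark lung capillary types, Car4, a carbonic anhydrase, was 3488 ± 559.8 in lung, 2358 ± 192 in kidney and 1181 ± 135 in heart, a call that median scaling ended. Ednrb, the endothelin receptor B, was at 2187 ± 139.7, 767 ± 139.6 and 696 ± 69.2 (1.51 and 1.63). Among 38 genes of angiotensin, prostanoid and other vasoactive signalling 18 were higher and 3 lower, with 6 lower after median scaling or quantile normalization and 5 without kidney replicate 3. Ace, the angiotensin-converting enzyme, read 4772, 5962, 6779, 6937 and 7049 in lung, 1054, 1310.3, 967, 1354 and 1504 in kidney and 477, 886, 959, 941 and 988 in heart, and its differences were 2.34 ± 0.19 over kidney and 2.90 ± 0.19 over heart. Ptger2, a prostaglandin E receptor, was at 2.99 and 3.41, and Ptgs2, the inducible cyclooxygenase, at 3.64 and 3.55 with lung arrays of 1595, 854, 1480.0, 529 and 532. Ptgds, prostaglandin D synthase, was lower in lung than in both, at 199 ± 27.1 against 2889 ± 483 and 4155 ± 700.3.

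Among 43 genes of fibroblasts, pericytes and mesothelium 27 were higher and 2 lower. Mfap4, a protein that binds elastic microfibrils, stood highest: 7001, 10420.5, 10452, 9159 and 9222 in lung against 3.9 to 11.4 in kidney and 26.2 to 357 in heart (8.56 ± 0.47 over kidney and 6.26 ± 0.47 over heart). Itga8, an integrin chain of lung fibroblasts, was 7319.9 ± 374 against 921 ± 153 and 367 ± 105. Col13a1 (3.27 and 4.30), the hedgehog decoy receptor Hhip (3.52 and 4.37) and the cation channel Trpc6 (3.76 and 3.14) were others. The mesothelial factor Wt1, which podocytes of the kidney also express, was dim in lung at 90.9 ± 20.4 and lower than in both. Of 45 genes of elastic fibres and collagens 21 were higher and 2 lower, and the distance was larger to kidney (median 1.496) than to heart (0.49). Eln, which encodes elastin, read 5691, 7022, 6614, 6396 and 8043 in lung, 722, 676, 498, 795 and 692 in kidney and 2439, 1809, 2067, 2355 and 1959 in heart, with differences of 3.30 ± 0.13 over kidney and 1.66 ± 0.13 over heart. Ltbp2 (4.57 and 3.99), the crosslinking enzyme Lox (2.36 and 2.41) and the microfibril gene Mfap2 (2.69 and 1.96) were also above both. Smooth muscle showed fewer calls, 6 of 17 higher and 1 lower, with Cnn1 (3.55 and 3.38), Tagln (2.42 and 2.45) and Mylk (1.55 and 2.31) among the 6. Relative to heart the list's median was -0.41, and 9 of its 17 genes were lower in lung than in heart.

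Alveolar macrophages take up and degrade surfactant. Of 49 macrophage genes 28 were higher in lung than in both organs and 3 were lower. The lower count was 5 after median scaling and 1 without kidney replicate 2, kidney replicate 4 or lung replicate 5, each left out alone. Chil3, a chitinase-like protein of alveolar macrophages, was the gene farthest above both organs, reading 15354, 16019.7, 15178, 17476 and 18658 in lung, 11.6, 5.5, 3.8, 7.9 and 4.1 in kidney and 2.6, 9.4, 95.4, 2.8 and 8.2 in heart. All kidney and heart arrays were dim, heart replicate 3 being the highest of them, and the differences were 9.52 ± 0.37 over kidney and 9.11 ± 0.37 over heart. The scavenger receptor Marco read 429.5, 398, 284, 437 and 378 in lung and the lectin Siglecf 412, 442, 408, 354 and 412, against at most 42.7 on any other array. The smaller difference of Marco was 3.91 with the deposited scaling, but 0.60 after median scaling and 0.595 after quantile normalization, where another of its probe sets had the highest mean and was used. Ccl6, a chemokine of macrophages, was 6586 ± 1223 against 136 ± 51.8 and 724 ± 98.2, and Mpeg1, a pore-forming protein of phagocytes, 2549 ± 380.4 against 362 ± 125 and 373 ± 231. The smaller difference of Mpeg1 was 2.82, and 2.20 without heart replicates 2 and 3. Neutrophil, mast cell and basophil genes were higher for 12 of 19 tested, none lower. The calcium-binding proteins of neutrophils S100a8 and S100a9 varied among lungs, S100a8 with 1014, 1935, 2999, 4849.5 and 2659.9 and S100a9 with 718, 1345, 2219, 3046 and 1959. Their differences were 4.35 and 3.43 and 4.47 and 2.82. Hdc, the enzyme of histamine synthesis, was 1248 ± 129.7 against 11.3 ± 5.55 and 19.7 ± 4.79, and the siderophore-binding Lcn2 3688 ± 453 against 203 ± 23 and 76.1 ± 25.1.

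Lymphocyte genes were higher as well: 19 of 32 genes of T and NK cells and 19 of 28 of B and plasma cells, against 24.1% of all genes tested. Of 8 thymocyte genes 3 were higher, too few to tell from that share. None was lower in any of the 3 lists. With a filter at the 60th percentile the T and NK cell count was 8 and the thymocyte count 1. The thymocyte count was 2 after median scaling or quantile normalization. Cd3d, a chain of the T cell receptor complex, read 187, 151, 263, 311 and 236 in lung against 9.8 to 17.9 and 6.7 to 24.6 (3.01 and 2.89), and the granule protease Gzma 774, 1502, 1111, 1372 and 1629 against 138 to 208 and 101 to 164 (2.77 and 3.00). The B cell receptor chain Cd79b (2.27 and 2.26), Vpreb3 (2.56 and 2.55) and the joining chain Jchain (2.15 and 2.14) were above both organs, as was Sdc1 (3.25 and 3.65), which epithelium also expresses. Of the thymocyte list, the genes of receptor rearrangement Rag1 and Rag2 were too dim to be tested, and Cd8b1, Cd1d1 and Ly6d were called. Cd8b1 fell below the level for testing after median scaling, after quantile normalization and without lung replicate 4. Zap70, a T cell kinase, read 1883, 145, 1112, 1974 and 1541 in lung, where replicate 2 stood apart, and was called over neither organ. Genes of antigen presentation were higher for 25 of 40 and lower for 1. Cd74, the invariant chain of MHC class II, read 11911, 14403, 18379.5, 16730.1 and 16719 in lung, 3006, 2164, 1783, 2137 and 2510.5 in kidney and 2115, 2487, 2400.1, 2877 and 2422 in heart, with differences of 2.75 ± 0.14 over kidney and 2.65 ± 0.14 over heart, and the cysteine protease Ctss was 9785 ± 1030.2 against 965 ± 178 and 1947 ± 199. H2-Aa, a class II chain, was at 1.99 and 2.50 and the dendritic cell chemokine Ccl17 at 2.28 and 2.22.

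Of 33 genes induced by interferon 17 were higher and 2 lower, and 10 were higher after median scaling. Isg20 (2.60 and 1.47) and Gbp7 (2.01 and 1.33) had the larger differences, whereas Rsad2, an antiviral enzyme, was lower in lung at 955 ± 138 against 2397 ± 379.6 in kidney and 3045 ± 391 in heart. Chemokines, cytokines and their receptors were higher for 24 of 46 and lower for 2 (4 without heart replicate 1 and 5 after median scaling), with Csf2rb, the receptor chain for the growth factor that alveolar macrophages depend on, at 999 ± 109 against 135 ± 12.2 and 152 ± 39.7. Of 51 genes of complement and innate defence 31 were higher and 1 lower. Hc, complement component C5, read 9432, 10539, 10833, 10999.9 and 11546 in lung against 23.5 to 119 and 21.6 to 157 (6.80 ± 0.38 over kidney and 7.16 ± 0.38 over heart), and Chil1, a chitinase-like glycoprotein, 9247, 10515, 10639, 11295 and 11234 against 12.1 to 138 and 48.7 to 154.

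Xenobiotic and retinoid metabolism split between the organs: 19 of 51 genes were higher in lung than in both and 3 lower, and against kidney alone 23 were higher and 23 lower. Cyp2b10, a cytochrome P450 known for induction by phenobarbital in liver, read 6084, 6728, 6551, 6943 and 6639 in lung, 107, 53.1, 29.5, 58.7 and 101 in kidney and 44.9, 75.6, 113, 78.3 and 31.1 in heart, the lung values lying within a narrow range (6.36 ± 0.28 over kidney and 6.37 ± 0.28 over heart). Cbr2, a carbonyl reductase of lung epithelium, was 28651 ± 4892 against 231 ± 41.6 and 1063 ± 111, Aldh1a1, a retinal dehydrogenase, 16122 ± 1491 against 405 ± 47.6 and 956 ± 123, and the aldehyde oxidase Aox3 2201 ± 223 against 62.8 ± 41.6 and 22 ± 33.2. Among 37 genes of ion and water transport 18 were higher and 3 lower. Slc6a14, an amino acid carrier, read 1925, 2142, 1731, 1677 and 2175 in lung against 1 to 9.4 and 1.2 to 33.3, and Slc6a2, the noradrenaline transporter, 1963, 1610.5, 2103, 2197 and 2089 against 8.4 to 40.2 and 12.5 to 73.9. Scnn1g, a subunit of the epithelial sodium channel that clears fluid from alveoli, was higher than in kidney by 1.52 ± 0.17 and than in heart by 6.49 ± 0.17. The water channel Aqp4 was lower than in both (-2.11 and -1.30). In notch, wnt, BMP and hedgehog signalling 29 of 54 genes were higher and 3 lower, among the 29 Bmp5 (3.89 and 3.69), the wnt antagonist Nkd1 (3.43 and 3.34), the BMP antagonist Smad6 (2.81 and 2.37) and the ligand Shh, at 1224, 1418, 1206, 1396 and 1431 in lung (2.30 and 2.98).

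**Figure D3:**
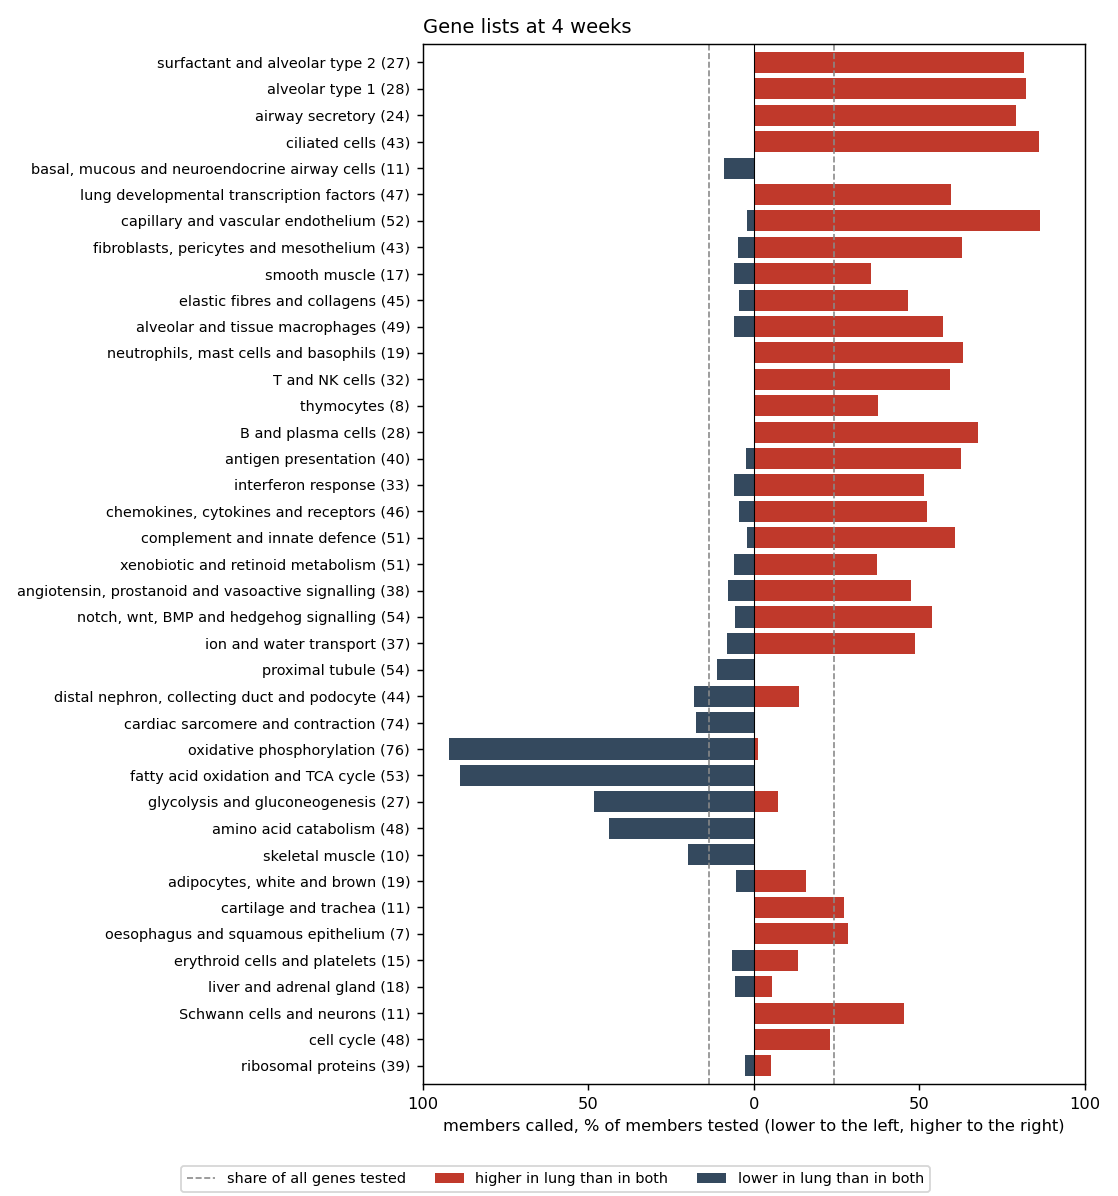
Share of tested members of each gene list called higher (red, to the right) or lower (dark, to the left) in lung than in both other organs at 4 weeks, with the number tested in brackets and dashed lines at the shares over all genes tested, 24.1% and 13.4%. The alveolar, airway secretory, ciliated and endothelial lists reach furthest to the right, and oxidative phosphorylation (70 of 76 lower) and fatty acid oxidation with the TCA cycle (47 of 53 lower) furthest to the left.

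On the lower side, the lung was set apart by mitochondrial energy metabolism. Of 76 genes of oxidative phosphorylation 70 were lower in lung than in both organs, 65 of them by at least 2-fold, with median differences of -1.74 from kidney and -2.85 from heart. The 1 gene of the list that was higher was Cox4i2, the isoform of cytochrome oxidase subunit 4 known from lung and from low oxygen, at a mean of 596 in lung against 225 in kidney. Atp5g1, which encodes a subunit of the membrane ring of ATP synthase, read 846, 735, 995, 963 and 1043 in lung, 7958, 6149.6, 12754, 6893 and 8286 in kidney and 39834, 34367, 28914, 29015 and 34559 in heart. All lung arrays lay below all others, and the differences were -3.14 ± 0.17 from kidney and -5.16 ± 0.17 from heart. Cyc1 (-2.47 and -3.51), Uqcrfs1 (-2.37 and -3.45) and Uqcrc1 (-2.28 and -3.55) of complex III and Sdhb of complex II (-2.45 and -3.55) were lower to a like degree. Of 53 genes of fatty acid oxidation and the TCA cycle 47 were lower, 42 by at least 2-fold, and none was higher. Ppara, the nuclear receptor that induces fatty acid oxidation, was farthest below both organs: 26.4, 9, 81.5, 78.6 and 27.2 in lung, 1562, 2116, 3163, 2469 and 2616 in kidney and 2203, 1387, 981, 1314 and 1272 in heart. The lung arrays were all dim for it, and the differences were -5.46 ± 0.34 and -4.72 ± 0.34. Ppargc1a, the coactivator of mitochondrial biogenesis, read 348, 145, 206, 186 and 138 in lung, 1113, 1098, 2946, 1295 and 1477 in kidney and 3662, 8363, 5483, 8077 and 8261 in heart, and its partner Esrrg, an orphan nuclear receptor, was 92.2 ± 42.5 against 2259 ± 181 and 1286 ± 137. Mdh1, the cytosolic malate dehydrogenase, was lower by 7.69-fold than in kidney and 15.3-fold than in heart, and Oxct1, which activates ketone bodies, by 6.05-fold and 9.88-fold. Estrogen-related receptors such as Esrrg are known to bind TCAAGGTCA and like letters. TCAAGGTCA, TGAAGGTCA or AAAGGTCA stood in the 250 bases upstream, on either strand, of 1 of 59 oxidative phosphorylation genes called lower (1.69%), against 1.83% of the genes tested.

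Glycolysis and gluconeogenesis had 13 of 27 genes lower and 2 higher. Ldhb, the lactate dehydrogenase chain of oxidative tissues, was 2059.5 ± 333 in lung against 18168 ± 1565 and 21798 ± 2604, Pgk1 3674 ± 119.9 against 24998 ± 4215 and 24601 ± 6973, and Fbp2 was dim in lung at 69.4 ± 46.4. Of 48 genes of amino acid breakdown 21 were lower and none higher. Got1, the aspartate aminotransferase of the malate-aspartate shuttle, read 188, 188, 309.5, 291 and 262 in lung, 2481, 2680.4, 4539.7, 3334 and 3177 in kidney and 20836, 19635, 18419, 17432 and 19599.8 in heart, and Slc25a13, the mitochondrial carrier of the same shuttle, 107, 54.9, 144, 165 and 223 in lung against 1919 to 3441 and 3097 to 3736. Both genes lay below all other arrays in every lung, Got1 at -3.62 and -6.21 and Slc25a13 at -4.16 and -4.58. Other genes among the 15 lowest were Slc47a1, a drug and cation exporter (122 ± 33.8 against 10851 ± 1128 and 2728 ± 551), Adhfe1 (-4.91 and -3.89), the epoxide hydrolase Ephx2 (-3.87 and -4.25), the fat storage protein Fitm1 (-3.88 and -5.87), Tesc (-3.81 and -6.34), Fn3k (-3.57 and -3.61), the formin Fhod3 (-3.55 and -6.12), the muscle ubiquitin ligase Trim63 (-3.51 and -7.30) and Me3 (-3.48 and -4.24).

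Genes that define the other organs were checked in lung. Of 54 proximal tubule genes 52 were lower in lung than in kidney, but only 6 were lower than in both, most being dim in heart as well, and the count was 14 after quantile normalization and 10 after median scaling. Slc34a1, the phosphate carrier of the proximal tubule, read 25623, 22914, 31327, 25847 and 28347 in kidney against 82 to 163 in lung and 39.9 to 116 in heart, and Umod, the urinary glycoprotein of the thick ascending limb, 24451, 24492, 31815, 24845 and 29511 against 4.1 to 56 and 2.9 to 59.5. Lrp2, the endocytic receptor megalin, was an exception with signal in lung: 422, 447, 359, 387 and 413 against 7 to 26.1 in heart and 13369.9 to 19152 in kidney. Of 44 genes of the distal nephron, collecting duct and podocyte 6 were higher and 8 lower than in both. All 5 lung arrays carried heart muscle transcripts. Of 74 genes of the cardiac sarcomere and contraction 73 were lower in lung than in heart, 47 were higher in lung than in kidney, 13 were lower than in both and none was higher. The mean log2 level of the list was 8.31 to 8.89 over the lung arrays, 7.24 to 7.64 over kidney and 13.25 to 13.46 over heart. Myh6, the main cardiac myosin of the adult mouse, read 1904, 533, 2076, 1372 and 1272 in lung, 18.1, 28.3, 33.5, 39.7 and 22.3 in kidney and 57945, 60582, 46831, 48955 and 58060.5 in heart, and Tnnt2, cardiac troponin T, 1643, 759, 1749, 1531 and 1427 in lung, 25, 1.1, 10.7, 2.7 and 2 in kidney and 53537, 61224, 50111, 52433 and 59726 in heart. Both were well above kidney on every lung array, lowest on lung replicate 2, and at differences from heart of -5.36 and -5.32. Myl7, the atrial myosin light chain, read 4155, 1725, 3472, 3477 and 3205 in lung, 22.8, 9.3, 26.7, 24 and 27.1 in kidney and 24031, 2443, 19216, 21423 and 24754 in heart, a difference of 6.38 ± 0.51 from kidney. Lung replicate 2 was again lowest among lungs, and heart replicate 2 fell into the range of the lung arrays. Sln, sarcolipin, read 1365, 534, 1026, 1099.8 and 806 in lung and 12668, 878, 9974, 11353 and 13061 in heart, and Nppa, the atrial natriuretic peptide, 1591, 520.1, 602, 628 and 720.3 and 46509, 10865, 37798, 38488 and 47674. In mice, muscle of cardiac type extends from the left atrium into the pulmonary veins. How much of these signals comes from that sleeve or from attached heart tissue was not tested. Fabp3, the fatty acid carrier of heart, was 621 ± 95.8 against 3837 ± 538 and 52462 ± 3895.

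**Figure D4:**
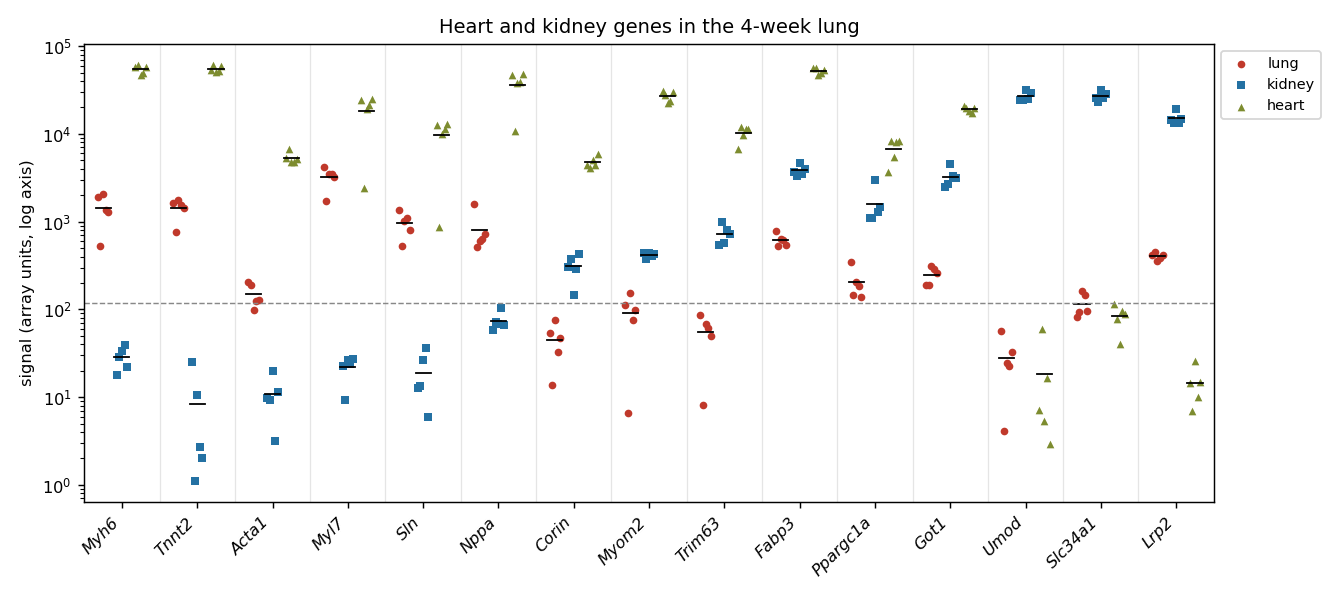
Signals of 15 genes of heart muscle, energy metabolism and kidney on each array of 4 weeks, on a log axis, with lung as red circles, kidney as blue squares, heart as green triangles, a bar at each mean and a dashed line at 117.9. Myh6, Tnnt2, Myl7, Sln and Nppa in lung lie between kidney and heart, heart replicate 2 is low in Myl7, Sln and Nppa, and Umod and Slc34a1 are high in kidney alone.

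Markers of other tissues that a lung sample could hold were counted in the same way. Over all genes tested, 24.1% were higher than in both organs and 13.4% lower. Of 19 genes of white and brown fat 3 were higher and 1 lower than in both organs, the lower count being 4 without kidney replicate 5, 2 without lung replicate 4 and 3 after median scaling. The list's mean log2 level ranged from 8.6 to 9.60 over the lung arrays. The enzymes of fatty acid synthesis Fasn (4981 ± 987 against 1509.8 ± 717 and 969 ± 315) and Scd1 (1.17 and 3.55), which type 2 cells also use for surfactant lipid, and the lipid droplet gene Cidec (2.14 and 2.62) were the 3 that were higher. Ucp1, the uncoupling protein of brown fat, varied most of all genes among the lung arrays, at 273, 5.5, 6.1, 41.9 and 4.7, with 1709, 422, 885, 18 and 17.9 in kidney. Of 11 cartilage genes 3 were higher, Chad at 634 ± 112 against 19.4 ± 3.62 and 23.7 ± 6.28, Matn4 at 3.47 and 3.64 and Col2a1 at 181, 157, 53.6, 172 and 169 in lung, while Col9a2, Col9a3 and Matn1 were too dim to be tested. Of 11 genes of Schwann cells and neurons 5 were higher, among them Gap43 (3.60 and 3.52) and Stmn2 (2092 ± 173 against 58.8 ± 25.4 and 243 ± 64), while the neurofilament genes Nefl, Nefm and Nefh were too dim to be tested. Of 7 genes of oesophagus and squamous epithelium 2 were higher, Sbsn (0.63 and 0.94) and Calml3 (0.35 and 1.46), the latter a call that 19 of the alternative settings ended. Of 18 liver and adrenal genes 1 was higher and 1 lower, of 15 of erythroid cells and platelets 2 and 1, and of 10 of skeletal muscle none and 2. The part of attached tissue in these values was not tested.

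The heat shock gene Hspa1a was also among the 10 most variable genes of the lung, reading 7925, 4710.1, 4548, 1742 and 619 in lung, 1042, 1007, 845, 1070.3 and 1021 in kidney and 160.1, 111, 114, 174 and 120.3 in heart. Lung replicates 4 and 5 lay nearer to kidney, replicate 5 below all kidney arrays, and heart was below both. The call as higher (1.502 ± 0.49 over kidney and 4.26 ± 0.49 over heart, adjusted p at most 0.0139) thus came with overlap. Rtel1 (132, 799, 479, 186 and 47 in lung) and Sh3gl2 (81.7, 579.5, 539, 79.8 and 555) were 2 others, both called lower than in kidney and not called against heart. Dbx1, Zap70, Mroh2a, Tuba3b, Brdt and Pck1 completed the 10, none of them called against both organs.

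Cell cycle genes, which tell of proliferation, were higher for 11 of 48 and lower for none, a share near the 24.1% of all genes, and the count was 4 higher and 2 lower after median scaling and 7 higher without lung replicate 5. They included the replication helicase subunits Mcm3 (1.15 and 0.73) and Mcm4 (1.18 and 0.87), and with them the inhibitors of the cycle Cdkn1a at 1499 ± 322 against 570.3 ± 161 and 676 ± 216 and Cdkn1c at 1747 ± 163 against 719 ± 128 and 799 ± 85.8. Median scaling ended the call of Mcm4, and the probe set of highest variance those of Mcm3 and Cdkn1a. Of 39 ribosomal protein genes 2 were higher and 1 lower. The direction of this list turned with the scaling: 21 were higher and 2 lower after quantile normalization, and none higher and 5 lower after median scaling.

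The same comparison was made at other ages, on arrays that the 4-week comparison did not use. At 8 weeks, lung was set against kidney, heart of that age not being analysed here, and 5434 of 14088 genes were higher in lung (38.6%) and 4646 lower (33.0%). Of the 3483 genes higher at 4 weeks 3435 could be tested, and 3255 were higher in lung at 8 weeks (94.8%) and 4 lower. Of the 1944 lower genes 1908 were tested and 1742 were lower at 8 weeks (91.3%). Among those at least 2-fold apart, 1340 of 1351 higher genes (99.2%) and 647 of 653 lower genes (99.1%) were called the same way. The lung minus kidney difference of Chil3 was 9.52 at 4 weeks and 9.33 ± 0.08 at 8 weeks, that of Scgb1a1 9.69 and 8.93 ± 0.26, that of Ager 9.87 and 9.82 ± 0.08, and that of Ppara -5.46 and -4.95 ± 0.31. A test of the change itself, in 1 fit of the 20 lung and kidney arrays of both ages, found 88 of 14361 genes (0.613%) with a lung minus kidney difference that changed between 4 and 8 weeks, 43 of them among the 5399 tested genes of the 4-week profile. That test reuses the 4-week values that chose the profile, so the count among its genes is no independent result.

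At 1 week, 2 arrays went against their labels: the array labelled lung replicate 4 read 36022 for Myh6 and 1983 for Sftpc, and that labelled heart replicate 5 read 2396 for Myh6 and 27187 for Sftpc. With both left out, 13 arrays gave 1990 of 14308 genes higher in lung than in kidney and heart (13.9%) and 1318 lower (9.21%). Of the genes higher at 4 weeks 1643 of 3336 were also higher at 1 week (49.3%), and of the lower genes 1051 of 1917 (54.8%). Among those at least 2-fold apart at 4 weeks the counts were 1003 of 1270 (79.0%) and 547 of 650 (84.2%). As labelled, with all 15 arrays, limma called no gene in either direction, and 886 were higher and 417 lower at an unadjusted p under 0.05 in both comparisons. On the 13 arrays the differences at 1 week were 7.34 and 7.01 for Sftpa1 from kidney and heart, 9.84 and 8.09 for Scgb1a1 and 7.78 and 6.57 for Ager. For Chil3 they were 5.81 and 6.01, and for Cyp2b10 2.50 and 2.19. The lung minus kidney difference itself changed between 1 and 4 weeks in 3915 of 14556 genes (26.9%), among them 2320 of the 5401 tested genes of the 4-week profile. Here too the 4-week values that chose the profile enter the test. The share among its genes is thus partly set by that choice and is not to be read against the 26.9%.

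Within the lung, levels at 8 weeks were compared with those at 1 week, on 9 arrays without the array labelled lung replicate 4. Of 13662 genes 2865 were higher at 8 weeks (21.0%) and 2931 lower (21.5%). As labelled the counts were 1823 (13.2%) and 1739 (12.6%) of 13784. Of the 1364 tested genes at least 2-fold higher in the 4-week lung than in both organs 712 were higher at 8 than at 1 week (52.2%) and 226 lower (16.6%), with a median of 0.39 against -0.02 over all genes tested. The lists of the lung parted here. More ciliated cell genes were higher at 8 weeks than lower (37 and 0 of 43), as were genes of type 2 cells (20 and 0 of 27), type 1 cells (21 and 2 of 28), airway secretory cells (15 and 1 of 23), macrophages (34 and 0 of 48), T and NK cells (26 and 1 of 31), antigen presentation (30 and 1 of 38) and xenobiotic metabolism (35 and 2 of 44). Elastic fibre and collagen genes went the other way, with 4 higher and 34 lower of 45, as did developmental transcription factors (8 and 20 of 46), notch, wnt, BMP and hedgehog signalling (9 and 29 of 52) and the cell cycle (1 and 48 of 54).

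Cyp2b10 read 336 ± 33.9 at 1 week, 6589 ± 318 at 4 weeks and 5937 ± 571 at 8 weeks (SD), a difference of 4.08 ± 0.10 between 8 and 1 weeks, and Chil3 1456 ± 406 at 1 week, 16537 ± 1491 at 4 weeks and 13587 ± 842 at 8 weeks (3.24 ± 0.15). Hspa1a was higher at 8 than at 1 week by 4.27 ± 0.12, Ptgs2 by 2.99 ± 0.19 and Gzma by 2.96 ± 0.28. The surfactant genes differed little, with 0.09 ± 0.10 for Sftpc, which was not called, 0.42 ± 0.09 for Sftpb and 0.63 ± 0.08 for Sftpa1. Of the genes that were lower at 8 weeks, Eln read 19381 ± 2579 at 1 week, 6753 ± 868 at 4 weeks and 3099 ± 799 at 8 weeks (-2.66 ± 0.18), and Hhip 1874 ± 237 at 1 week, 579 ± 58.9 at 4 weeks and 314 ± 37.8 at 8 weeks (-2.52 ± 0.12). Ltbp2 (-1.89), Mfap4 (-1.91), Shh (-1.28) and Tbx4 (-1.17) were lower as well. For these 6 genes the lung of 4 weeks lay between the means of 1 and 8 weeks.

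**Figure D5:**
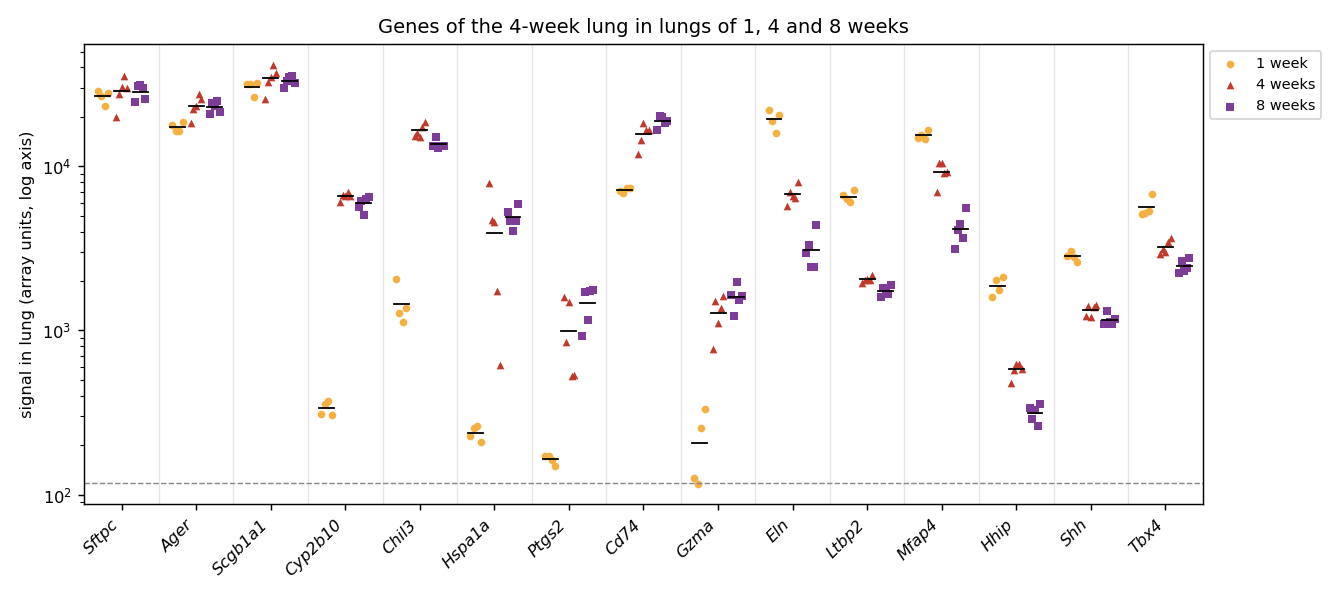
Signals of 15 genes in each lung array at 1 week (yellow circles, 4 arrays, without the array labelled replicate 4), 4 weeks (red triangles, 5) and 8 weeks (purple squares, 5), on a log axis, with a bar at each mean and a dashed line at 117.9. Cyp2b10, Chil3, Hspa1a, Ptgs2 and Gzma are lowest at 1 week, Eln, Mfap4 and Hhip are highest at 1 week, and Sftpc changes little.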

How the data were processed

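The deposited values are probe set intensities of 40 Affymetrix arrays on a linear scale, scaled by the authors so that the mean after trimming 2% at each end is 500 on every array, as read from the values. RMA and Partek 6.6 are listed in the submitters' processing notes with no role given, although RMA output would be on a log2 scale and these values are linear. The genome build and the summary method are not given in the sources used here, and no detection calls were used, so dim values have no known floor. Precision is limited by how many arrays there are.

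Of 45101 probe sets, 34945 have 1 gene symbol, 932 several, 9160 none and 64 are controls. Each of 18193 genes was represented by the probe set with the highest mean over all arrays. A gene was tested when its brightest group averaged at least 117.9, the 40th percentile over the whole table. The test was limma's moderated linear model (version 3.58.1, R 4.3.3; functions lmFit, eBayes) on log2(intensity + 16) of the 15 arrays of 4 weeks, with Benjamini-Hochberg adjustment over all genes tested in each comparison and a threshold of 0.05. The other ages were fitted in the same way. The script was tested on simulated data. Figures were drawn with matplotlib 3.10.9.

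The genes named are the 20 highest and 15 lowest, up to 5 called members per gene list, the 10 most variable in lung and a fixed set, 198 in all, beside some chosen after their values were seen (Cox4i2, and those in the closing section). Of 1689 entries in 39 gene lists, 1525 were found on the array. Members and lists were chosen with earlier results of these data known. Replicate numbers are not stated to mark a shared animal. Promoter sequences are those of RefSeq, without those on chromosome 18.

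Alternatives were the offset, quantile normalization, median scaling, the filter, the probe set per gene, separate fits and the variance prior. Others were a replicate block, the description number as a random block, and each array left out in turn.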

Additional observations from a re-analysis of the deposited data

Results flagged for a closer look

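Among 594 sets of 5 arrays examined (198 named genes in 3 organs), 48 held 1 array whose gap to the nearest of the others was over 0.71 of the whole range. For 5 values from 1 normal distribution chance gives about 1 such set in 20. The sets are not independent, and the named genes include the 10 most variable in lung, so the 48 are no test against that rate. Lung replicate 1 stood apart from the other 4 lung arrays for Aox3 at 1818 against 2239 to 2399, Cldn18 at 5221 against 7025 to 7926, Cubn at 68.4 against 7 to 13.6 and Ddo at 367 against 242 to 250.4. It also did for Nppa at 1591 against 520.1 to 720.3. Lung replicate 2 stood apart from the other 4 lung arrays for Mroh2a at 22.5 against 220.3 to 436, Tnnt2 at 759 against 1427 to 1749 and Zap70 at 145 against 1112 to 1974. Lung replicate 3 stood apart from the other 4 lung arrays for Cdkn1a at 2068 against 1299 to 1434 and Col2a1 at 53.6 against 157 to 181. Lung replicate 4 stood apart from the other 4 lung arrays for Mcm4 at 589 against 888 to 977. Lung replicate 5 stood apart from the other 4 lung arrays for Ctss at 11611 against 9099 to 9482 and Fitm1 at 106 against 48.6 to 58.5. Kidney replicate 1 stood apart from the other 4 kidney arrays for Scgb1a1 at 104 against 12.9 to 18.6. Kidney replicate 2 stood apart from the other 4 kidney arrays for Myl7 at 9.3 against 22.8 to 27.1. Kidney replicate 3 stood apart from the other 4 kidney arrays for Alb at 322 against 390.5 to 416, Foxf1 at 36.3 against 155 to 221, Hc at 23.5 against 87.5 to 119 and Hspa1a at 845 against 1007 to 1070.3. It also did for Lmod1 at 50.8 against 35.3 to 39.3, Ptgds at 2061 against 2872 to 3243 and Stmn2 at 14.4 against 61.3 to 76.9. Kidney replicate 4 stood apart from the other 4 kidney arrays for Myb at 36 against 5.1 to 9. Kidney replicate 5 stood apart from the other 4 kidney arrays for Ccr7 at 6.5 against 11.6 to 14, H2-Ob at 59.3 against 25.4 to 31.1 and Rsph1 at 17.2 against 6.7 to 8.3. Heart replicate 1 stood apart from the other 4 heart arrays for Ace at 477 against 886 to 988, Bsnd at 68.3 against 207 to 286, Chil1 at 48.7 against 116 to 154 and Cyp3a11 at 119 against 156 to 167. It also did for Fendrr at 39.1 against 6.7 to 8.3, Hp at 31 against 83.7 to 109 and Tuba3b at 23.1 against 152 to 252. Heart replicate 2 stood apart from the other 4 heart arrays for Aox3 at 81.3 against 5.2 to 10.5, Cd2 at 33.4 against 3.6 to 8.5, Clec1b at 110.2 against 148 to 158 and Ednrb at 575 against 706 to 744. It also did for Myl7 at 2443 against 19216 to 24754, Nppa at 10865 against 37798 to 47674 and Sln at 878 against 9974 to 13061. Heart replicate 3 stood apart from the other 4 heart arrays for Chil3 at 95.4 against 2.6 to 9.4, Lox at 231 against 307 to 336, Me3 at 1477 against 1704 to 1799 and Rpl12 at 415 against 289 to 304. It also did for Scgb1a1 at 1657 against 8.8 to 24.4 and Sftpc at 1013 against 116 to 216. Heart replicate 4 stood apart from the other 4 heart arrays for Nkx2-1 at 13.9 against 47.9 to 68.8 and Ucp1 at 342 against 13.5 to 40.8.

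Genes of the profile were looked up that were called in the opposite direction at 1 week, against both kidney and heart, or at 8 weeks, against kidney. For 12 of them the change of the lung minus kidney difference itself passed an adjusted p of 0.05 in limma. The same arrays gave the opposite calls by which these genes were chosen. A pass was thus favoured in advance and is no separate support. Genes that changed sign at 1 week against kidney alone were not counted. Between 1 and 4 weeks, where the change is given as 1 week minus 4 weeks on the log2 scale, it was 3.34 for Htra1, a secreted protease, 2.57 for Crybb3, 2.31 for Camk1g, 1.95 for Prag1, 1.35 for Mycn, a factor of growing tissue, and 1.21 for Gstk1, which were lower in the 4-week lung than in both organs. It was -2.34 for Art4, -2.08 for Sema3d and -1.43 for Klhl6, which were higher in the 4-week lung. Htra1 read 7019 ± 556 in lung at 1 week and 1861 ± 186 at 4 weeks, against 1189 ± 184 and 3221 ± 341 in kidney. Between 4 and 8 weeks, as 8 weeks minus 4 weeks, the change was -1.80 for Esm1, an endothelial proteoglycan, -0.81 for Ceacam1 and -0.72 for Tril, all higher in the 4-week lung. Esm1 read 419 ± 89.0 in lung at 4 weeks and 261 ± 33.0 at 8 weeks, against 246 ± 46.6 and 566 ± 66.5 in kidney. For 9430091E24Rik both ages were called with opposite signs, but the change of -0.72 did not pass (adjusted p = 0.126).

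Probe sets that the annotation pairs with no gene symbol stood outside the comparison. Of 9160, 4540 were tested, and 870 were higher and 200 lower in lung than in both organs. At least 2-fold, 348 were higher (7.67%) and 74 lower (1.63%).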

How the results depend on the processing

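The scaling of the arrays changed the counts most. After median scaling 2240 genes were higher in lung than in both organs, against 3483 with the deposited scaling, and 77.1% of the 5427 genes were called in the same direction. Genes called in the opposite direction numbered 27 with the probe set of highest variance, 4 with the mean over probe sets and 0 in every other 4-week setting run in limma. With each of the 15 arrays left out in turn, the counts were 3278 to 3479 higher, 1829 to 2082 lower, 1340 to 1399 at least 2-fold higher and 658 to 680 at least 2-fold lower. At 8 weeks they were 5235 to 5427 higher and 4456 to 4696 lower than in kidney, with 3206 to 3247 of the higher and 1698 to 1734 of the lower genes of the 4-week profile. As labelled, the 1-week comparison called 0 genes higher and 0 lower in limma (886 and 417 at an unadjusted p under 0.05), and lung at 8 weeks against 1 week gave 1823 higher and 1739 lower. The last 2 settings differ by the arrays that went against their labels.

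The deviations from the group means of arrays with the same replicate number correlated at -0.20 to 0.12 over 15 pairs. Over the 60 pairs of unlike number the range was -0.22 to 0.31. For the numbers in the sample descriptions it was -0.11 to 0.16 over 10 same-numbered pairs. Such values do not show whether samples share an animal. With the replicate number as a block 3427 genes were higher, 1893 lower, 1380 at least 2-fold higher and 664 at least 2-fold lower. With the description number as a random block 3486 were higher and 1949 lower.

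Of the 198 named genes 168 were tested with the same call in every 4-week alternative, 13 kept it wherever they were tested but were too dim to be tested in at least 1, and 17 changed it. Besides Calml3 and Cav1, calls were lost for Rpl12 in 10 settings, Pvalb in 9, Cubn in 8 and Bub1 in 5, with Bub1 not tested in 7 more. Differences of called named genes moved by over 1.5-fold for 28 with the mean over probe sets and 49 with an offset of 64. Among the 28, the smaller difference of Slc6a2 went from 5.59 to 2.53 and that of Sftpc from 6.72 to 4.32. Those of Esrrg (-3.67 to -1.75), Mdh1 (-2.94 to -1.36) and Atp5g1 (-3.14 to -1.75) shrank as well. The size grew only for Cxcl15, Ddc, Ppargc1a and Sec14l3. Leaving out 1 array moved 15 list counts of 3 or fewer genes by over 1.5 times, each by at most 3 genes, and 1 larger count, that of the cell cycle. The signal over background limits what can be said of dim genes, and the absence of detection calls leaves the background unknown.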

Other observations

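Genes of the 4-week profile that differed most between the lungs of 8 weeks and 1 week were looked up among those at least 2-fold higher than both organs, a choice made after the values were seen. Inmt, a methyltransferase of indoles, read 1223 ± 447 (SD) at 1 week, 25360 ± 3528 at 4 weeks and 24680 ± 1573 at 8 weeks, a difference of 4.39 ± 0.21 (SE, log2) between 8 and 1 weeks. Lrat, which esterifies retinol for storage, read 73.5 ± 7.47, 1736 ± 519 and 1994 ± 367 (4.47 ± 0.14). Hspa1b, the neighbour and near copy of Hspa1a, was 4.54 ± 0.14 higher, and the 2 genes may share probe signal. Cyp1a1, a cytochrome P450 induced through the aryl hydrocarbon receptor, was 3.18 ± 0.15 higher.

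On the other side, Frem1, a basement membrane protein, read 2724 ± 602 at 1 week, 456 ± 103 at 4 weeks and 255 ± 24.1 at 8 weeks (-3.31 ± 0.14). Wnt2, a ligand of lung mesenchyme, was lower at 8 weeks by 2.23 ± 0.11, Snai2, a transcription factor of mesenchymal cells, had a difference of -2.40 ± 0.12, and Gli2, an effector of hedgehog signalling, one of -2.15 ± 0.15.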
